A study of Mus musculus with 11 samples.

Results

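The 10 genes described here encode matricellular proteins, and they were taken by symbol from count tables of 58223 entries (56980 Ensembl genes and 1243 repeat subfamilies). They are the CCN family genes Ccn1, Ccn2, Ccn3, Ccn4 and Ccn5, the thrombospondins Thbs1 and Thbs2, Tnc (tenascin C), Sparc (osteonectin) and Postn (periostin). All 10 were found in every table and passed the filter on low counts, which 22298 entries passed. Total RNA was sequenced after ribosomal RNA depletion in primary lung fibroblasts of 11 mice, grown at 5% O2 and 37 °C with 15% serum. The groups were 3 female and 3 male mice lacking cGAS, an enzyme that senses DNA in the cytosol (KO), and 2 female and 3 male wild-type mice (WT), with 1 mouse per library. The allele, strain, age and passage of the cells are not given in the sources used here, and the extraction text speaks of tissue rather than cells. Library names in the file headers are styled differently in females and males. The labels name no batch, and whether the sexes were prepared separately is not given, so any such difference cannot be told apart from sex.

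Matricellular proteins are secreted into the matrix around cells, where they act on cell adhesion, growth factor activity and matrix assembly more than as structural fibres. Fibroblasts are a main source of them in lung, and several are used as readouts of wound repair and fibrosis. CCN proteins bind integrins and proteoglycans, thrombospondin 1 can activate latent TGF-beta, and Ccn1 and Ccn2 are textbook targets of the YAP and TAZ coactivators, which act through TEAD factors.

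Upstream sequence was available for 5 of the 10 genes, Ccn1, Sparc, Thbs2, Postn and Tnc, in RefSeq on GRCm38.p6. The windows of Ccn1 and Thbs2 are shown because both genes separated KO from WT males, and that of Tnc because it differed between the sexes. Each holds the 250 bases before a start site, 5′ to 3′ on the gene's strand, and capitals mark the matches. The Ccn1 window lies at chr3:145649986-145650235, that of Thbs2 at chr17:14694263-14694512 and that of the second listed start of Tnc at chr4:64046937-64047186, all on the minus strand.
Ccn1: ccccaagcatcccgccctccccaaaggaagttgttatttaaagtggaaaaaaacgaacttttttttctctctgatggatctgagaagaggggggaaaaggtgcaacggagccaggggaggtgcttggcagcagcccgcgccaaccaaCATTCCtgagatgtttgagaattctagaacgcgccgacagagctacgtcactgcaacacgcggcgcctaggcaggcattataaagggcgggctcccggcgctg
Thbs2: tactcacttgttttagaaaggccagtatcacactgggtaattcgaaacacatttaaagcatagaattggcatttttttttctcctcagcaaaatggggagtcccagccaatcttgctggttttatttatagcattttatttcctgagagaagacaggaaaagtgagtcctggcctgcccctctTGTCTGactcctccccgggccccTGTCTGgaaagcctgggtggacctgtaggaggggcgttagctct
Tnc: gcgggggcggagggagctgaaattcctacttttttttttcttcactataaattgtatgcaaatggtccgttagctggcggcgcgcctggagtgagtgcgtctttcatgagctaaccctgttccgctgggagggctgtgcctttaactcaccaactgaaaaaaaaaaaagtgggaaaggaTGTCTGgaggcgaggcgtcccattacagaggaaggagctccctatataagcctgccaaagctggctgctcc

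Short motifs were searched on both strands without mismatches, and no match overlapped another. The TEAD motif GGAATG was found at -103 in the Ccn1 window, on the opposite strand, and 12.6% of 32851 mouse windows of this length hold it. The SMAD motif CAGACA lay on the opposite strand at -67 and -44 in Thbs2, at -71 in the Tnc window shown and at -36 in Sparc, against 17.1% of all windows. The AP-1 motif TGANTCA (6.75% of windows) and the CArG box of serum response factor (1.47%) had no match in the windows searched, and neither Postn window held any of the motifs. The window of the first listed start of Tnc, which is not shown, held none of them either. These matches describe letters only.

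Total counts per library ran from 27261958 to 48039328, and repeats took 5.30% to 10.2% of them. Cgas, the targeted gene, was at 2.07 ± 0.255 CPM (CPM are counts scaled to library size with TMM factors; SD, n = 6) in KO and 8.24 ± 1.75 CPM (SD, n = 5) in WT libraries, with no overlap. WT female 2 stood apart, with a median correlation of 0.960 with the other libraries against 0.978 to 0.986 for the rest. Fibroblast markers passed the filter in 8 of 8 cases and summed to 9880 to 11790 CPM in KO and 10810 to 12770 CPM in WT, led by Col1a2, Vim and Pdgfra, although Lum was at 0.485 to 6.27 CPM. Macrophage and leukocyte markers also passed in 10 of 10 cases, led by Lyz2, Mrc1 and Cd68, at 6609 to 11693 CPM in KO and 4879 to 6942 CPM in WT. In such bulk samples, fewer cells of a type and less RNA per cell cannot be told apart.

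Levels of the 10 genes were compared with each other per kilobase of exon, using lengths of the GENCODE vM21 annotation. Thbs1 stood highest at 2207 ± 547 CPM per kb (SD, n = 11), and Sparc followed at 725 ± 119. Ccn2 at 266 ± 84.5 and Ccn1 at 242 ± 71.1 CPM per kb did not differ beyond their spread. Below them came Tnc at 123 ± 52.1, Thbs2 at 77.2 ± 12.1 and Ccn5 at 61.7 ± 15.9 CPM per kb, and neither Tnc and Thbs2 nor Thbs2 and Ccn5 differed beyond the larger SD. Ccn4 at 17.7 ± 8.33 and Postn at 9.76 ± 4.39 CPM per kb also overlapped, and Ccn3 was lowest at 1.46 ± 1.11. Together the 10 genes took 1.22% to 2.37% of the counts of a library, of which Thbs1 alone took 0.831% to 1.74%.

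**Figure D1:**
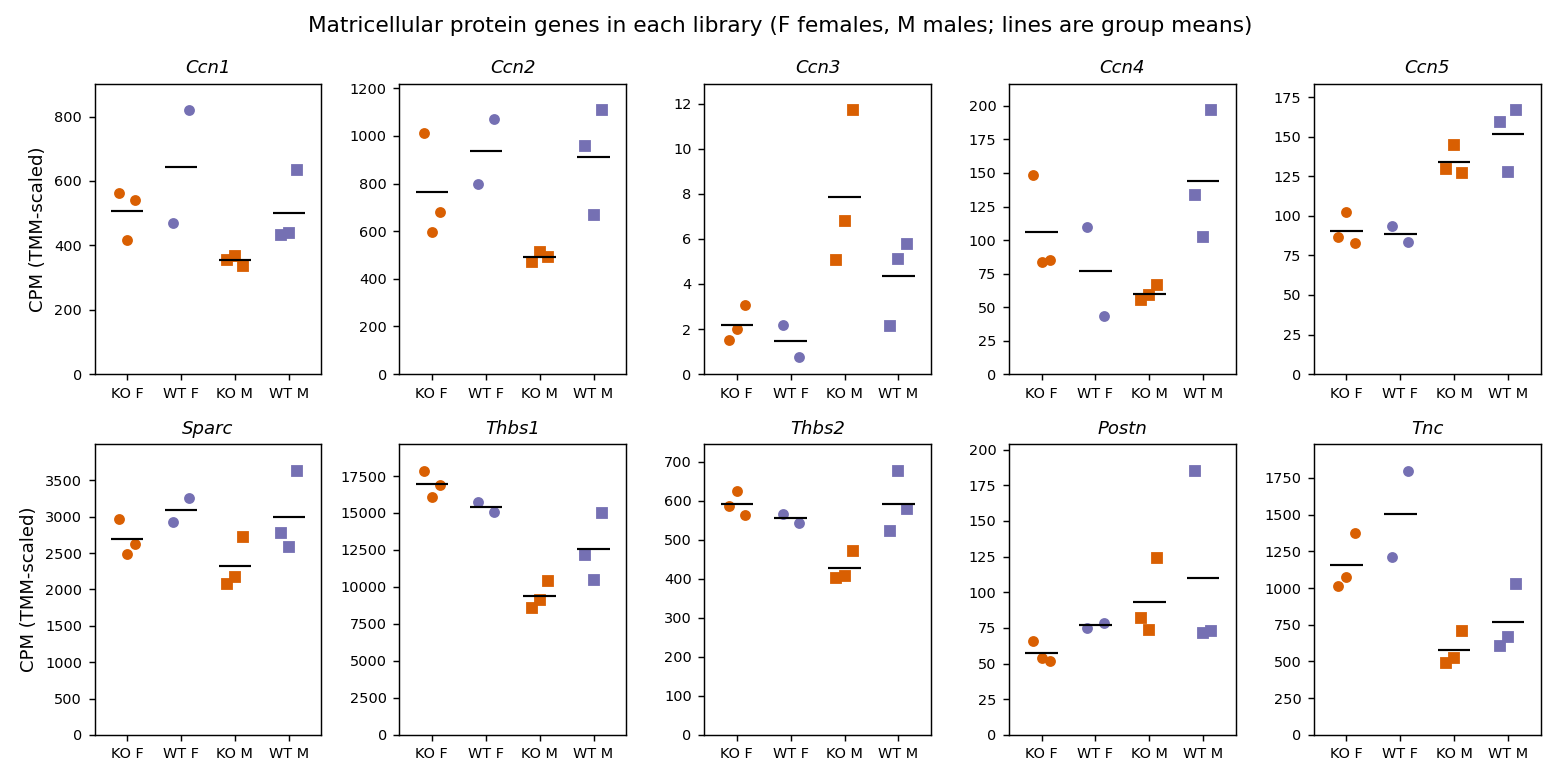
Level of each of the 10 genes (vertical axes, TMM-scaled CPM, starting at 0) in each library, by genotype and sex (horizontal axes; F females, M males). Points are single mice and lines are group means; for Ccn1, Ccn2, Ccn4, Thbs1 and Thbs2 all KO males lie below all WT males, and the same does not hold in females.

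Between KO and WT over both sexes, 9 of the 10 genes had a negative log2 difference, with a median of -0.31 against -0.0087 over all entries tested. None passed the adjusted threshold of 0.05 in edgeR's quasi-likelihood test (0 of 10, background 0.00448%, which is Cgas alone). At an unadjusted p under 0.05, 4 of 10 were lower in KO (Ccn1, Ccn2, Sparc and Tnc), against 6.64% of all entries. No gene had all KO libraries below all WT libraries (background 0.354%). The count of adjusted calls depended on tool and library. DESeq2 called Ccn2 lower among 525 entries and limma-voom with quality weights called Thbs2 lower among 2779. Without WT female 1, edgeR called Ccn1 (-0.57, adjusted p = 0.0359) and Ccn2 (-0.76, adjusted p = 0.0398) lower among 1616 entries. Without WT female 2, the library that stood apart, 9 of 10 genes stayed negative. At an unadjusted p under 0.05, 3 of 10 were then lower, against 7.2% of all entries.

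In males, where 3 KO mice stood against 3 WT mice, 6 of the 10 genes were lower in KO at an unadjusted p under 0.05 (background 10%, or 2231 entries), and 5 of 10 had no overlap between the genotypes in that direction (background 14.1%). None passed the adjusted threshold (0 of 10, background 1.80%, or 402 entries). DESeq2 called 4 of the 10 lower (Ccn2, Ccn4, Thbs1 and Thbs2) among 2142 entries, and limma-voom with quality weights called 3 (Ccn2, Ccn4 and Thbs2) among 4261. Leaving out WT female 1 or WT female 2, which changes the shared estimate of spread, gave the same 3 calls in edgeR (Ccn2, Ccn4 and Thbs2), among 1964 and 2181 entries. Without WT male 2 edgeR called Ccn2 (adjusted p = 0.0334), and without KO male 3 it called Thbs2 (adjusted p = 0.0377). In females, 5 of the 10 differences were positive and 5 negative, 0 of 10 were called (background 0.00448%) and 0 of 10 were lower at an unadjusted p under 0.05 (background 4.17%). The difference between the sexes in the genotype effect was called for 0 of 10 genes (background 0%; 2898 entries had an unadjusted p under 0.05, DESeq2 called 226 and limma-voom 0). At an unadjusted p under 0.05, 3 of 10 genes (Ccn4, Thbs1 and Thbs2) had the lower difference in males, against 5.95% of all entries.

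**Figure D2:**
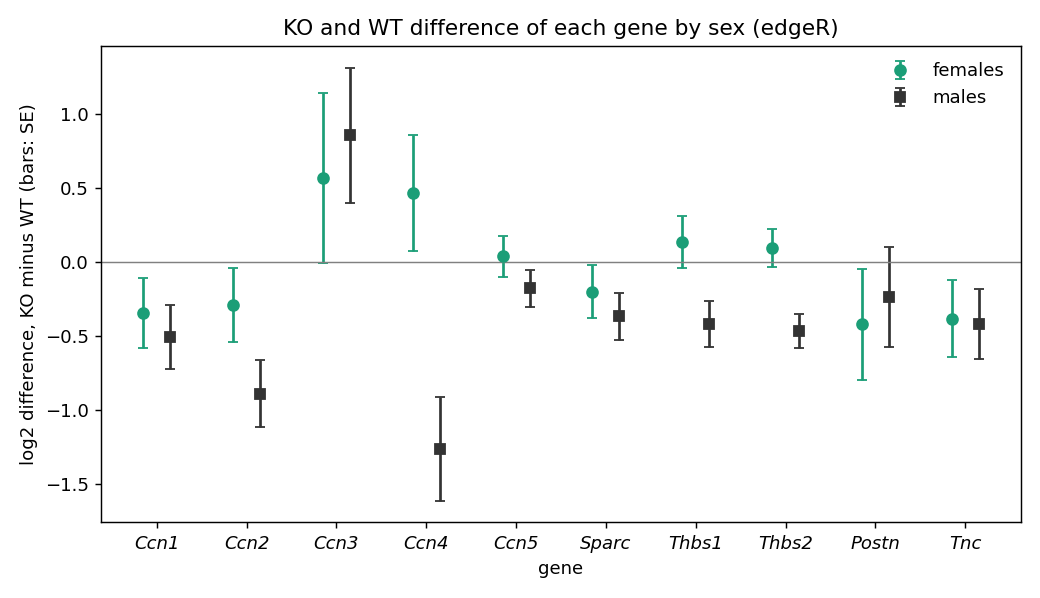
Log2 difference between KO and WT (vertical axis, KO minus WT, bars are SE of the edgeR fit) of each gene (horizontal axis) in females (circles) and males (squares). Ccn3 lies above 0 in both sexes, and Ccn4, Ccn5, Thbs1 and Thbs2 lie above 0 in females and below 0 in males.

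Among the CCN genes, Ccn2 (connective tissue growth factor, ENSMUSG00000019997), a profibrotic secreted factor, had 469, 512 and 491 CPM in KO males and 959, 666 and 1109 CPM in WT males. In KO females it had 1014, 597 and 683 CPM and in WT females 800 and 1073 CPM. All KO males lay below all WT males, whereas the female groups overlapped. The log2 difference was -0.89 in males (SE 0.23, adjusted p = 0.0614), -0.29 in females (SE 0.25, adjusted p = 0.691) and -0.63 over both sexes (SE 0.19, adjusted p = 0.175). Ccn2 shares 665 exon bases with Gm15270 on the opposite strand, whose counts were 24.5% to 26.6% of those of Ccn2. As the strand setting of the counting is not given, reads from these genes cannot be told apart.

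Ccn1 (ENSMUSG00000028195), an early response gene that promotes adhesion and matrix turnover, had 355, 368 and 336 CPM in KO males against 433, 437 and 632 CPM in WT males. It had 563, 416 and 541 CPM in KO females and 468 and 820 CPM in WT females. The male groups did not overlap, and the 820 CPM of WT female 2 was the highest of all 11 libraries. The log2 difference was -0.51 in males (SE 0.22, adjusted p = 0.199), -0.35 in females (SE 0.24, adjusted p = 0.668) and -0.43 over both sexes (SE 0.16, adjusted p = 0.210). Without WT female 2 the difference in females was 0.11, on the other side of 0.

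Ccn4 (ENSMUSG00000005124), a Wnt-induced CCN protein, had 55.4, 58.7 and 66.2 CPM in KO males and 134, 102 and 197 CPM in WT males. In KO females it had 149, 83.8 and 85.2 CPM and in WT females 110 and 43.5 CPM. It held the most negative male difference among the 10 genes, and its female values spread widely. The log2 difference was -1.26 in males (SE 0.35, adjusted p = 0.0757), 0.47 in females (SE 0.39, adjusted p = 0.688) and -0.53 over both sexes (SE 0.38, adjusted p = 0.486). The male difference minus the female difference was -1.73 (SE 0.53, adjusted p = 0.304). It was called (-2.55, adjusted p = 0.0180) without WT female 1, which left WT female 2 as the lone WT female and 2497 entries called.

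Ccn5 (ENSMUSG00000027656), a CCN protein without the C-terminal domain of its relatives, had 129, 145 and 127 CPM in KO males and 160, 128 and 167 CPM in WT males. In females it had 86.9, 103 and 82.6 CPM in KO and 93.3 and 83.5 CPM in WT. The genotypes overlapped in both sexes, with a log2 difference of -0.083 over both (SE 0.096, adjusted p = 0.683). Ccn3 (ENSMUSG00000037362), often described as opposing Ccn2, had the lowest mean level of the 10 genes, with 31 to 577 counts per library. It had 5.07, 6.78 and 11.7 CPM in KO males, 2.14, 5.11 and 5.78 CPM in WT males, 1.49, 1.99 and 3.08 CPM in KO females and 2.18 and 0.777 CPM in WT females. It was the 1 gene of the 10 with a positive difference over both sexes (0.74, SE 0.35, adjusted p = 0.301), and the genotypes overlapped in each sex.

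Thbs1 (ENSMUSG00000040152), a thrombospondin that binds CD36 and CD47, had 8589, 9138 and 10409 CPM in KO males and 12168, 10468 and 14991 CPM in WT males. In KO females it had 17852, 16059 and 16920 CPM, and in WT females 15763 and 15056 CPM. KO lay below WT in males and above WT in females, with no overlap in either sex (background for a higher KO in females 11.3%). The log2 difference was -0.42 in males (SE 0.16, adjusted p = 0.151) and 0.14 in females (SE 0.18, adjusted p = 0.774), and the difference between them was -0.56 (SE 0.24, adjusted p = 0.361). Its exons share 208 bases with Gm29233 on the opposite strand, whose counts were 3.93% to 4.13% of those of Thbs1.

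Thbs2 (ENSMUSG00000023885), a thrombospondin that limits blood vessel growth and influences collagen fibril assembly, had 403, 408 and 471 CPM in KO males and 522, 677 and 578 CPM in WT males. KO females had 587, 625 and 564 CPM and WT females 567 and 544 CPM. The 3 KO males were the lowest of the 11 libraries, and the others lay between 522 and 677 CPM. The log2 difference was -0.47 in males (SE 0.12, adjusted p = 0.0570) and 0.093 in females (SE 0.13, adjusted p = 0.791), and the difference between them was -0.56 (SE 0.17, adjusted p = 0.304).

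Tnc (ENSMUSG00000028364), a hexameric glycoprotein of wound matrix, had 492, 525 and 708 CPM in KO males and 606, 670 and 1027 CPM in WT males. KO females had 1017, 1074 and 1372 CPM and WT females 1212 and 1799 CPM. The genotypes overlapped in each sex, and 5 of 5 females were above 5 of 6 males. The log2 difference over both sexes was -0.40 (SE 0.17, adjusted p = 0.262). Exons of Tnc share 176 bases with 8030451A03Rik on the opposite strand, whose counts were 1.13% to 3.36% of those of Tnc.

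Sparc (ENSMUSG00000018593), a collagen-binding glycoprotein, had 2070, 2177 and 2722 CPM in KO males and 2778, 2586 and 3633 CPM in WT males. KO females had 2970, 2484 and 2622 CPM and WT females 2927 and 3261 CPM. KO male 3 lay above WT male 2 and KO female 1 above WT female 1, so the genotypes overlapped in both sexes, and the log2 difference over both was -0.29 (SE 0.12, adjusted p = 0.250). Postn (ENSMUSG00000027750), a fasciclin-domain protein that supports collagen crosslinking, had 81.8, 73.6 and 124 CPM in KO males and 185, 71.5 and 72.6 CPM in WT males. In KO females it had 65.6, 54.2 and 52.1 CPM and in WT females 74.9 and 78.6 CPM. The female groups did not overlap (background for a lower KO 8.44%), and in males the highest value came from WT male 1. The log2 difference of Postn was -0.24 in males (SE 0.34, adjusted p = 0.718) and 0.36 when WT male 1 was left out.

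Between males and females, across genotypes, 4 of 10 genes passed the adjusted threshold (background 4.82%, 1075 entries). Ccn5 and Ccn3 were higher in males, and Tnc and Thbs1 were lower. Ccn5 rose by 0.66 on the log2 scale (SE 0.097, adjusted p = 0.0108), at 143 ± 17.4 CPM (SD, n = 6) in males and 89.8 ± 8.35 CPM (SD, n = 5) in females, with no overlap (background 3.40%). It passed under all 17 alternatives. Tnc was lower in males by -0.99 (SE 0.17, adjusted p = 0.0160) and passed in 15 of 17 alternatives, missing the threshold without KO female 3 (adjusted p = 0.0537) or KO male 2 (adjusted p = 0.0603).

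Thbs1 was lower in males by -0.61 on the log2 scale (SE 0.15, adjusted p = 0.0444), with no overlap between 6 males and 5 females (background 1.98%). The sexes lay farther apart in KO, at means of 9379 CPM in males and 16944 CPM in females. In WT the means were 12542 CPM in males and 15409 CPM in females. The call was lost without any 1 of 8 libraries, namely KO females 1, 2 and 3, KO males 1, 2 and 3 and WT males 1 and 2, at adjusted p from 0.0642 to 0.121. Ccn3 was higher in males by 1.74 (SE 0.36, adjusted p = 0.0323), at 6.10 ± 3.16 CPM (SD, n = 6) against 1.91 ± 0.852 CPM (SD, n = 5). Its call was lost without any 1 of 7 libraries, namely KO females 1, 2 and 3, KO males 2 and 3, WT female 2 and WT male 2, at adjusted p from 0.0590 to 0.0856. These differences also separate the library name styles.

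The genes varied together in part. Of 45 pairs, 29 had a positive Pearson r of log2 CPM across the 11 libraries, and 5 passed an adjusted permutation p of 0.05. That number was 0 without KO male 1, 3 without KO male 2 and 9 without WT male 3. Ccn2 and Sparc had r = 0.866 (permutation p = 0.00034, adjusted p = 0.0153; Spearman rho = 0.90, permutation p = 0.00043), and 0.832 within the 6 males. Ccn1 and Ccn2 had r = 0.849 (permutation p = 0.00089, adjusted p = 0.0200; rho = 0.918, permutation p = 0.00019) and 0.899 within males. The next pairs were Thbs1 and Tnc at r = 0.861 (permutation p = 0.00134, adjusted p = 0.0201), Ccn1 and Tnc at r = 0.812 (permutation p = 0.00239, adjusted p = 0.0269) and Ccn1 and Sparc at r = 0.774 (permutation p = 0.00498, adjusted p = 0.0448). Their rho was 0.764, 0.691 and 0.782, of which none passed after adjustment, while the 2 first pairs passed by rho as well. Without the 2 libraries farthest from the median of the first gene, the 5 values of r were 0.781, 0.800, 0.744, 0.736 and 0.617. The sexes were separated for Thbs1, so the pooled r of Thbs1 and Tnc mixes 2 levels, and within males it was 0.892. Libraries were permuted across genotype and sex, so each r and its p also take in differences between the groups. The 6 males hold both genotypes, which did not overlap for Ccn1, Ccn2 or Thbs1, so r within males takes in genotype as well. In females, 5 libraries were too few for a value.

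**Figure D3:**
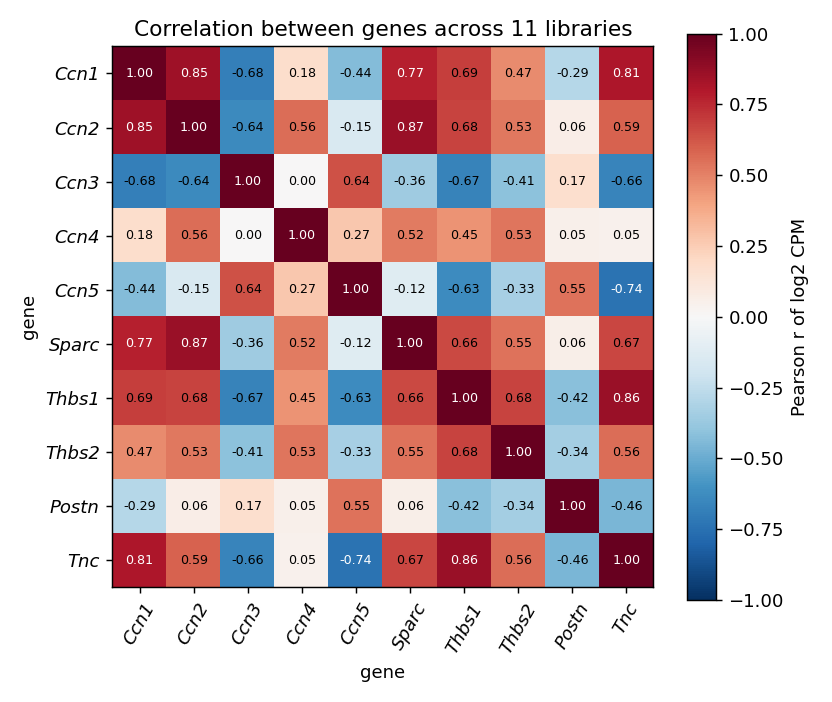
Pearson r of log2 CPM (colour scale from -1 to 1) between each pair of the 10 genes over 11 libraries. Ccn1, Ccn2, Sparc, Thbs1, Thbs2 and Tnc are positively correlated with one another, and Ccn3 has negative r with each of these 6. No pair with Ccn3 passed (lowest adjusted permutation p = 0.0930). Within males, r of Ccn3 was 0.178 with Tnc and -0.568 to -0.0517 with the rest of these 6.

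Among 13532 named genes with a mean log2 CPM of at least 1, those most like Ccn2 across the 11 libraries included Gm15270 (r = 0.998), the antisense partner described above, Gm48529 (0.978), Tagln (0.978) and Ttll7 (0.964). Tagln encodes transgelin, an actin-binding protein of contractile cells. Those most like Postn were Bag1 (0.905), Rbm17 (0.899), Lsm5 (0.893), Slc35e4 (0.881) and Snhg3 (0.878). These values describe 11 libraries and carry no test.

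Pathway genes around the members were read from lists. Of all 22298 entries tested, 11482 were negative over both sexes, 11572 in males and 10219 in females. Of 15 SRF/MRTF targets, actin cytoskeleton and contractile genes, 15 were negative in KO over both sexes with a median log2 difference of -0.41, and 4 were lower at an unadjusted p under 0.05 (6.64% of all entries). In males all 15 were lower at an unadjusted p under 0.05 (10% of all entries), with a median of -0.85 against -0.016 over all entries, and Cnn1 (-1.47) and Tpm1 (-1.07) fell at an adjusted p of 0.0477 each. Both calls were lost without any 1 of 7 libraries, namely KO females 1, 2 and 3, KO males 1 and 2 and WT males 1 and 3 (adjusted p up to 0.205), and with RLE scaling. In females 13 of the 15 were positive, with a median of 0.18. Tagln was at -1.04 in males (SE 0.24, adjusted p = 0.0533) and -0.18 in females (SE 0.26, adjusted p = 0.795). Cald1, the actin regulator caldesmon, was at -0.69 in males (SE 0.16, adjusted p = 0.0533) and -0.0016 in females (SE 0.17, adjusted p = 0.993). Over both sexes Tagln was at -0.67 (SE 0.22, adjusted p = 0.183) and Cald1 at -0.39 (SE 0.15, adjusted p = 0.240).

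Of 20 YAP/TAZ targets other than Ccn1 and Ccn2, 17 were negative in males with a median of -0.46, whereas 11 were positive in females with a median of 0.052. Over all 22298 entries, 11572 were negative in males and 12075 were positive in females. In males 10 of the 20 targets were lower at an unadjusted p under 0.05, against 10% of all entries. Ajuba, a LIM protein of cell junctions, fell in males (-0.81, adjusted p = 0.0495). Ankrd1 was at -1.02 in males (SE 0.23, adjusted p = 0.0534), -0.41 in females (SE 0.25, adjusted p = 0.668) and -0.75 over both sexes (SE 0.19, adjusted p = 0.173). Tgfb2 was at -0.63 over both sexes (SE 0.21, adjusted p = 0.192). Among 16 Hippo pathway genes, 11 were negative in males with a median of -0.24, whereas 13 were positive in females with a median of 0.096. In males 8 were lower at an unadjusted p under 0.05 (10% of all entries), and Tead1, a TEAD factor, fell (-0.67, adjusted p = 0.0495). The calls of Ajuba and Tead1 were lost without any 1 of KO females 1, 2 and 3, KO males 1 and 2 and WT males 1 and 3 (adjusted p up to 0.205 and 0.209), and with RLE scaling. Tead4 was at -0.69 over both sexes (SE 0.23, adjusted p = 0.189) and the kinase gene Stk4 at 0.27 (SE 0.099, adjusted p = 0.214). The TGF-beta list of 14 genes had 6 positive and 8 negative members over both sexes, with Tgfbr2, a receptor, at 0.48 (SE 0.13, adjusted p = 0.173). At an unadjusted p under 0.05, 4 were lower and 2 higher over both sexes (1481 and 2351 of 22298 entries). In males 5 were lower and 3 higher at that level (2231 and 2766 entries). The list median was -0.11 over both sexes, -0.29 in males and 0.051 in females.

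Of 18 receptor genes, 9 were positive and 9 negative over both sexes, and likewise in males. In males 4 were lower and 3 higher at an unadjusted p under 0.05 (2231 and 2766 of 22298 entries). Itga5, a fibronectin receptor subunit, was at 311 ± 32.2 CPM (SD, n = 3) in KO males and 624 ± 170 CPM (SD, n = 3) in WT males (adjusted p = 0.0525). Its log2 difference was -0.23 in females (SE 0.25, adjusted p = 0.734) and -0.67 over both sexes (SE 0.20, adjusted p = 0.175). Notch1 was at 0.37 over both sexes (SE 0.11, adjusted p = 0.176). Of 16 further matricellular genes, 12 passed the filter. Of these, 6 were positive and 6 negative over both sexes, with a median of -0.014. In males 5 were positive and 7 negative, with a median of -0.14. The counts in females were also 5 and 7, with a median of -0.13. Smoc1, a relative of Sparc, fell in KO males (-1.23, adjusted p = 0.0477) and was at 0.019 in females (SE 0.25, adjusted p = 0.983). Its call was lost without any 1 of KO females 1, 2 and 3, KO males 1 and 2 and WT males 1 and 3 (adjusted p up to 0.205), and with RLE scaling. Over both sexes Tnn, a tenascin, was at -2.24 (SE 0.71, adjusted p = 0.180) and Tgfbi at 0.65 (SE 0.22, adjusted p = 0.192). Between the sexes, Sdc4 (-0.54, adjusted p = 0.0456) and Ltbp2 (-0.64, adjusted p = 0.0374) were lower and Asap1 (0.34, adjusted p = 0.0443) higher in males. All 3 calls were lost without any 1 of KO females 1, 2 and 3, KO males 2 and 3, WT female 2 and WT male 2. Those of Sdc4 and Ltbp2 were also lost without KO male 1, and those of Sdc4 and Asap1 without WT male 1, with adjusted p up to 0.101 for Sdc4, 0.0940 for Ltbp2 and 0.106 for Asap1. Asap1 was also lost with RLE scaling, without the filter and with genes only. Thbs4 was called lower in males (adjusted p = 0.0128), at 0.0379 ± 0.0121 CPM (SD, n = 6), under the level of 3 counts, against 0.426 ± 0.322 CPM (SD, n = 5) in females.

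**Figure D4:**
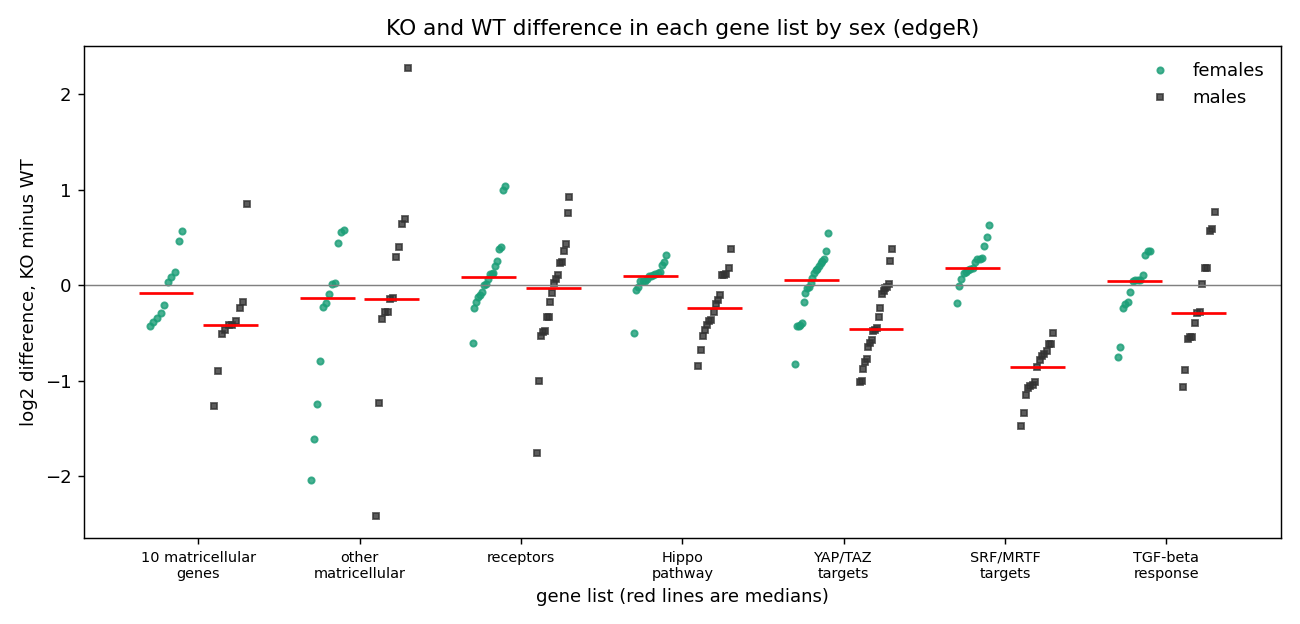
Log2 difference between KO and WT (vertical axis, KO minus WT) of each gene in the 10 matricellular genes and 6 further gene lists (horizontal axis), in females (circles) and males (squares); red lines are medians. The SRF/MRTF targets had a median of -0.85 in males and 0.18 in females, and the 10 genes -0.42 and -0.082.

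Sums of marker genes were set beside these results. KO and WT males did not overlap in the macrophage and epithelial sums, and they overlapped in the others. Among single entries, KO males lay wholly below WT males in 14.1% and wholly above them in 17.3%, so such separation was common. In males the macrophage and leukocyte markers summed to 6834 to 11693 CPM in KO and 4879 to 6509 CPM in WT, and 10 of 10 were positive with a median log2 difference of 0.79. Cd68 (0.93, adjusted p = 0.0477), Adgre1 (1.02, adjusted p = 0.0477) and Ptprc (0.82, adjusted p = 0.0495) were the 3 that passed (background 1.80%). In females the macrophage markers summed to 6609 to 7457 CPM in KO and 5087 to 6942 CPM in WT. There too 10 of 10 were positive, with a median of 0.29, and 0 had an unadjusted p under 0.05. Over both sexes 10 of 10 were positive with a median of 0.55. Of these, 9 were higher at an unadjusted p under 0.05, against 2351 of 22298 entries. Fibroblast markers were positive in 5 of 8 cases in males, with a median of 0.16. Epithelial markers, of which 5 of 8 passed the filter and Krt19, Krt8 and Krt18 were highest, summed to 9.14 to 12.2 CPM in KO males and 21.5 to 43.3 CPM in WT males, and Krt19 was called lower (-0.91, adjusted p = 0.0495). Pericyte markers, led by Notch3, Cspg4 and Mcam (6 of 7 passed), summed to 91.0 to 117 CPM in KO males and 117 to 185 CPM in WT males, and Mcam was called lower (-1.51, adjusted p = 0.0477). Mesothelial markers (6 of 6 passed; Wt1, Upk3b and Lrrn4 highest) summed to 20.2 to 39.3 CPM in KO males and 21.1 to 146 CPM in WT males. Endothelial markers (8 of 8; Vwf, Kdr and Cdh5 highest) summed to 55.5 to 102 CPM in KO males and 40.1 to 91.6 CPM in WT males. Of these 8, 6 were negative in males (11572 of 22298 entries), with a median of -1.47. Of those 6, 5 had an unadjusted p under 0.05, against 2231 entries. The 2 others were higher at that level, against 2766 entries, and Vwf was called higher (1.22, adjusted p = 0.0495). Cartilage markers (6 of 7; Sox9, Acan and Col2a1 highest) summed to 37.2 to 45.5 CPM in KO males and 30.0 to 54.1 CPM in WT males. Negative in males were 5 of 5 epithelial, 5 of 6 pericyte, 5 of 6 mesothelial and 4 of 6 cartilage markers that passed the filter. No marker was at 0 in all libraries. Each of these 6 marker calls in males was lost without any 1 of KO females 1, 2 and 3, KO males 1 and 2 and WT males 1 and 3 (adjusted p up to 0.209), and with RLE scaling. Their part in the differences of the matricellular genes was not tested.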

How the data were processed

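Each library is 1 mouse, and groups follow the labels. The authors deposited raw whole-number counts per gene and repeat subfamily. Trim Galore, STAR and the GRCm39 build are named in the submitters' processing notes; the counting program, strand setting and annotation are not given in the sources used here. Symbols and exon lengths came from GENCODE vM21 on the older build GRCm38, and 52073 of 56980 gene IDs had a symbol. Total counts were 27261958 to 48039328, so that a count of 0 allows up to 3 counts, or 0.0624 to 0.110 CPM before TMM scaling; this covers counting error only.

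Genotype and sex contrasts were tested in all 11 libraries with edgeR 4.0.16 in R 4.3.3 (quasi-likelihood test, TMM factors, filterByExpr at a minimum count of 10). The both-sexes and sex contrasts came from an additive model (8 residual degrees of freedom), the others from 1 mean for each genotype and sex (7). Benjamini-Hochberg adjustment ran over the 22298 entries tested, with a threshold of 0.05; SE is that of the fitted log2 difference. The edgeR fit of KO against WT over both sexes was tried on data simulated without a sex difference, and the other contrasts were not. Correlations used log2 CPM with a prior count of 2 and two-sided permutation tests of 100000 resamples, adjusted over 45 pairs. Alternatives were DESeq2 1.42.0, limma 3.58.1 (voom with quality weights), RLE scaling, no filter, genes without repeats, the replicate number as a block, and leaving out each library.

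The genes and lists were chosen with earlier results of these data known, and list counts are descriptions. Within each list other than markers, the 2 genes with the smallest unadjusted p over both sexes were named, as were groups of 5 or fewer called genes, the 5 genes most like Ccn2 and Postn, and the 3 highest markers of each cell type; Lum was named after its values were seen. Of the genes this rule takes, 2 are not reported here. Deviations of same-numbered KO and WT libraries had r from -0.145 to 0.0734 in 5 pairs, against -0.238 to 0.191 in 10 other pairs. The deviations of the 2 WT females mirror each other, so the female pairs cannot show pairing on their own.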

Additional observations from a re-analysis of the deposited data

Results flagged for a closer look

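Among 20 groups of libraries, formed by 10 genes and 2 genotypes, 2 held a library far from the others; about 1 in 20 would be marked by chance. For Postn in WT, WT male 1 (185 CPM) was set apart from the rest by a gap of 0.938 of the group's range, and the other WT libraries lay between 71.5 and 78.6 CPM. For Ccn4 in KO, KO female 1 (149 CPM) was set apart by a gap of 0.680 of the range, and the other KO libraries lay between 55.4 and 85.2 CPM.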

How the results depend on the processing

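Of the 22298 entries tested over both sexes, edgeR called 1; DESeq2 called 525, limma-voom 2779, edgeR without the filter 3 and with the replicate block 0. Of the 10 genes, DESeq2 and limma-voom called 1 each. In males 402 entries became 2142 (DESeq2), 4261 (limma-voom), 7 (RLE scaling), 1079 (no filter) and 0 (replicate block), and the 0 genes called became 4, 3 and 2 under DESeq2, limma-voom and no filter. In females, entries called went from 1 to 6 (DESeq2), 0 (limma-voom) and 0 (replicate block). For the genotype by sex difference they went from 0 to 226 (DESeq2) and 2 (no filter). Between the sexes, 1075 entries became 2845 (DESeq2), 5945 (limma-voom), 604 (genes only) and 271 (replicate block), with 2 of the 10 genes called under the block, since Ccn3 (adjusted p = 0.0525) and Thbs1 (adjusted p = 0.0577) missed the threshold. The block changed no other call of the 10 genes, and with it every male call named in the pathway and marker lists was lost. limma-voom turned Ccn5 to 0.046 over both sexes and 0.022 in males, Postn to 0.037 over both sexes and Ccn3 to -0.18 in the genotype by sex difference, where Tnc turned to 0.10 with the replicate block. The cause was not tested.

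Leaving out 1 library at a time moved entries called from 1 to 1616 over both sexes (highest without WT female 1), 0 to 2181 in males (highest without WT female 2), 0 to 3666 in females, 0 to 2497 for the genotype by sex difference (both highest without WT female 1) and 112 to 3370 between the sexes (lowest without KO male 2, highest without WT female 1). Genes called, of 10, ran from 0 to 2 over both sexes, 0 to 3 in males, 0 to 1 for the genotype by sex difference and 1 to 5 between the sexes. Log2 ranges that crossed 0 were -0.51 to 0.36 for Postn in males; -0.69 to 0.11 for Ccn1, -0.030 to 1.46 for Ccn3, -0.063 to 1.28 for Ccn4 and -0.061 to 0.12 for Ccn5 in females; and -0.46 to 0.18 for Ccn4 between the sexes. In the genotype by sex difference they were -0.60 to 0.19 for Ccn1, -0.61 to 0.90 for Ccn3, -0.28 to 0.011 for Sparc, -0.066 to 0.80 for Postn and -0.33 to 0.25 for Tnc. Correlated pairs ran from 0 (without KO male 1) to 9 (without WT male 3). A lone WT female was assumed to vary like the other groups. The number of mice, 2 in WT females, limited precision more than counting, since each of the 10 genes had at least 31 counts in every library.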
